A study of Homo sapiens with 6 samples.

Results

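The aryl hydrocarbon receptor pathway and a set of cytochrome P450 enzymes were followed in A549 cells, an established line of human lung adenocarcinoma, with and without the RNA-binding protein RAVER1. The 10 genes were taken by symbol from a count table of 60624 genes: 4 of the receptor pathway (AHR, ARNT, AHRR and TIPARP) and 6 P450 genes outside the CYP4F family (CYP1A1, CYP1B1, CYP2S1, CYP3A5, CYP24A1 and CYP27B1). All 10 had enough reads to be tested, among 16652 tested genes. PolyA RNA was sequenced from 3 libraries of parental cells (labelled WT) and 3 libraries of cells whose RAVER1 gene had been deleted with CRISPR/Cas9 (labelled RAVER1 knockout, KO2). The labels name no drug, ligand or time course for either group, and they do not say whether KO2 is 1 clone, so p-values reflect only how these 6 libraries vary, which may be technical.

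AHR is a transcription factor held in the cytoplasm by chaperones. After it binds a ligand, such as a polycyclic aromatic hydrocarbon or a tryptophan metabolite, it moves to the nucleus, pairs with ARNT and switches on genes that carry its DNA element, with CYP1A1 and CYP1B1 as the best known targets and AHRR and TIPARP as feedback inhibitors. P450 enzymes are heme proteins that oxidise small molecules, and in the lung those of the first family activate and clear components of smoke. CYP24A1 and CYP27B1 belong to another branch, the breakdown and the making of active vitamin D.

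Sequence just upstream of the start site is shown for CYP1A1 as the classic target, for the feedback genes AHRR and TIPARP, and for CYP2S1 and CYP3A5, whose RNA fell most. The 250 bases before the first listed start (RefSeq, GRCh38.p14) are given 5′ to 3′ in the direction of the gene, and capitals mark GCGTG, the core of the AHR and ARNT element, or its reverse complement CACGC.
CYP1A1: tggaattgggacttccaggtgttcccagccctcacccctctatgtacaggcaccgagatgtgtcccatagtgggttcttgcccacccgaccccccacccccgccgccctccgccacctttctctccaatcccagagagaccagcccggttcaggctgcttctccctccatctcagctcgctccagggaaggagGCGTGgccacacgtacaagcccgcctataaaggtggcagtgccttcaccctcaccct
AHRR: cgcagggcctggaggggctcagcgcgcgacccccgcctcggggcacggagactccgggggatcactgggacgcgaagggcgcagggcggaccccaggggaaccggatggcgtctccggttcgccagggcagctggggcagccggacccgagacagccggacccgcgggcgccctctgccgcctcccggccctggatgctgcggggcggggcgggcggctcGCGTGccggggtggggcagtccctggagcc
TIPARP: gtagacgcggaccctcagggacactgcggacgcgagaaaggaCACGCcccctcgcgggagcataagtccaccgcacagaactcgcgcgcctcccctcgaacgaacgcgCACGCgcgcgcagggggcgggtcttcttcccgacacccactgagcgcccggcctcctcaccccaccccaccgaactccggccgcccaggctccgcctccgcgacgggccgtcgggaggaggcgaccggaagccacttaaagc
CYP2S1: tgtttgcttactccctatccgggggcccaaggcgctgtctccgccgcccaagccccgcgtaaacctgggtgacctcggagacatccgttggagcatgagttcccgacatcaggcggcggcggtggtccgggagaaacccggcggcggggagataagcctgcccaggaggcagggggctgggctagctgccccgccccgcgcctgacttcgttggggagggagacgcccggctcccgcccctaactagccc
CYP3A5: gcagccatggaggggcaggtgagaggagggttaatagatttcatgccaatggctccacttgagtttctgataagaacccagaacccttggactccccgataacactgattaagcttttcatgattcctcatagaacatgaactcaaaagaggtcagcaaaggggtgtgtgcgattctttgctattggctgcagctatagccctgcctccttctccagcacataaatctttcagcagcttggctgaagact
These windows lie at chr15:74725529-74725778 on the minus strand (CYP1A1), chr5:321464-321713 on the plus strand (AHRR), chr3:156674340-156674589 on the plus strand (TIPARP), chr19:41192969-41193218 on the plus strand (CYP2S1) and chr7:99679997-99680246 on the minus strand (CYP3A5). CYP1A1 held 1 core, which began 57 bases before the start. AHRR also held 1, which began 30 bases before the start and read as the longer form TNGCGTG. TIPARP held 2, both on the reverse strand, and the windows of CYP2S1 and CYP3A5 held none. Sequence more than 250 bases before a start was not searched, so these counts do not say whether a gene has AHR elements further upstream. Within 300-base windows (250 before and 50 after a start), searched on both strands, GCGTG was present in 36.5% and TNGCGTG in 5.51% of 35116 RefSeq promoters, and the core is also part of the element read by hypoxia-inducible factors. In such a window AHR had 1 core, which began 37 bases after its start, and ARNT had none. The other listed start of AHRR had 2, and the other starts of TIPARP had none. Promoters of 7 of the 10 genes were matched, and CYP1B1, CYP24A1 and CYP27B1 were not among them.

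RAVER1 itself stood at 69.7 ± 3.80 CPM (counts-per-million, read counts scaled to a common library total) in parental and 2.73 ± 0.165 CPM in knockout libraries (SD, n = 3 each), lower in the knockout group as labelled. Total counts ran from 29811747 to 39910127 per library. Every epithelial marker of a list of 7 could be tested, and 6 of them were called lower in knockout libraries, beside 20.1% of all tested genes. The 7 markers summed to 6609 to 7244 CPM in the parental libraries and 3559 to 4115 CPM in the knockout ones. Of 7 alveolar type II markers only ABCA3 had enough counts for a test, and SFTPA1 and SFTPA2 were at 0 in all 6 libraries. The sums over leukocyte markers (at most 5.79 CPM, with CD3E at 0) and endothelial markers (at most 0.129 CPM, with PECAM1 at 0) were low in every library. The 5 fibroblast markers summed to 46.6 to 49.9 CPM in the parental and 64.2 to 68.1 CPM in the knockout libraries, most of it COL1A1, with DCN at 0. The part of these shifts in the results below was not tested, and in RNA from whole cultures fewer cells of a type and less RNA per cell cannot be told apart.

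Of the 10 genes, 4 fell (AHR, TIPARP, CYP2S1 and CYP3A5), 2 rose (AHRR and CYP1B1), and 4 were not past the threshold (ARNT, CYP1A1, CYP24A1 and CYP27B1), at a Benjamini-Hochberg adjusted p under 0.05 in edgeR's quasi-likelihood test over all tested genes. DESeq2 and limma-voom each called 1 higher, CYP1B1, and the same number lower (4). Over all tested genes 41.4% passed, 21.3% as higher and 20.1% as lower, and the 6 of 10 are to be read against that background. The groups did not overlap for 7 of the 10 genes, against 50.2% of all tested genes. The median log2 fold change of the 10 genes was -0.034, beside 0.0019 over all tested genes. The change was at least 2-fold in 1 of the 6 genes past the threshold, CYP3A5. Over all tested genes it was at least 2-fold in 1137 of the 6886 past the threshold, so that count is no result about the 10 genes.

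**Figure D1:**
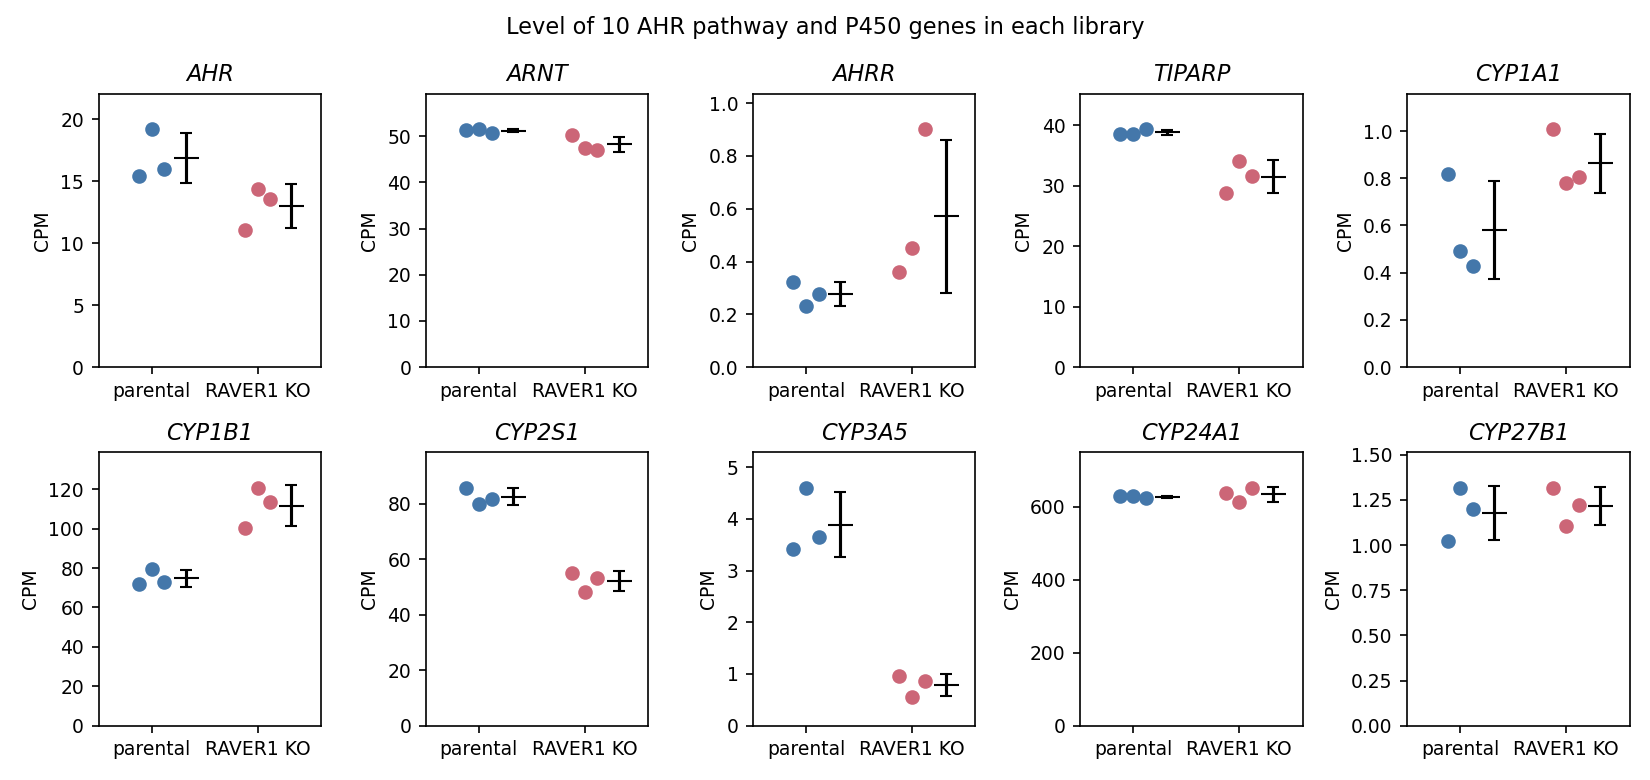
CPM (y axis, linear from 0) of the 10 genes in the 3 parental (blue) and 3 RAVER1 knockout (red) libraries, with the group mean and SD as a black bar beside the points. CYP2S1 and CYP3A5 are lower and CYP1B1 is higher in every knockout library, CYP24A1 stays between 613 and 652 CPM throughout, and AHRR is highest in 1 knockout library (0.901 CPM).

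The receptor itself was lower in knockout cells. AHR (ENSG00000106546, hg38 chromosome 7, 16916359 to 17346152, plus strand) stood at 15.4, 19.2 and 16.0 CPM in parental replicates 1 to 3 and at 11.1, 14.4 and 13.6 CPM in knockout replicates 1 to 3. The groups did not overlap, though the lowest parental library exceeded the highest knockout library by only about 1 CPM. AHR fell by 0.37 on the log2 scale (SE 0.099, edgeR adjusted p 0.00495), to 0.771 of the parental level with a 95% confidence interval of 0.668 to 0.891. The 20 tested genes nearest to it on chromosome 7 had a median log2 fold change of -0.20. Here and below, the nearest genes are the 10 tested ones on each side in the order of the count table, whatever their distance. Over the 808 tested genes of chromosome 7 the median was -0.11, with 266 past the threshold as lower and 76 as higher. The part of the chromosome in the fall of AHR was not tested. A second gene model on the same strand, AC019117.2, covers 29.4% of the exon bases of AHR and had a count of 0 in all 6 libraries, and how the counting treated reads shared by both is not given in the sources used here.

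ARNT, the partner that AHR needs to bind DNA, did not pass the threshold. ARNT (ENSG00000143437, chromosome 1, 150809705 to 150876768, minus strand) stood at 51.2, 51.5 and 50.8 CPM in the parental and 50.2, 47.5 and 47.0 CPM in the knockout libraries. Each knockout library was below each parental one, yet the difference was small (log2 fold change -0.086, SE 0.051, edgeR adjusted p 0.1995). Its 95% interval ran from 0.875 to 1.02 times the parental level.

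The 2 feedback inhibitors went in opposite directions. TIPARP, an ADP-ribosyltransferase that is induced by AHR and limits it, had 38.5, 38.6 and 39.4 CPM in the parental and 28.7, 34.1 and 31.7 CPM in the knockout libraries (ENSG00000163659, chromosome 3, 156673235 to 156706770, plus strand). All 3 knockout libraries were below all parental ones, which lay within 1 CPM of each other. TIPARP fell by 0.30 on the log2 scale (SE 0.063, edgeR adjusted p 0.000792), to 0.812 of the parental level. AHRR, a repressor that competes with AHR for ARNT, was scarce, with counts of 11, 7 and 9 in parental and 14, 18 and 28 in knockout libraries (ENSG00000063438, chromosome 5, 304176 to 438291, plus strand). The counting error is wide at this level: the exact Poisson 95% interval of the 7 counts is 2.81 to 14.4 and that of the 28 counts is 18.6 to 40.5. AHRR rose, and the AHRR log2 fold change was 0.98 (SE 0.38, edgeR adjusted p 0.0471). That call was lost without knockout replicate 3 (0.55, edgeR adjusted p 0.305) and without parental replicate 1, 2 or 3, and neither DESeq2 (adjusted p 0.1156) nor limma-voom (adjusted p 0.07529) made it. Of the exon bases of AHRR, 3.18% lie in exons of PDCD6 on the same strand, which had up to 250 counts.

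CYP1B1, the abundant member of the first P450 family in these cells, rose. CYP1B1 oxidises oestrogens and polycyclic hydrocarbons (ENSG00000138061, chromosome 2, 38066973 to 38109902, minus strand). It had 71.9, 79.8 and 72.8 CPM in parental libraries and 100.3, 121 and 114 CPM in knockout libraries. The groups were well apart, with the lowest knockout library above the highest parental one. The rise was 1.49-fold (95% interval 1.36 to 1.63), a log2 fold change of 0.58 (SE 0.061, edgeR adjusted p 3.38e-07).

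Most genes on the chromosome of CYP1B1 were higher too, 752 of the 1125 tested. Tested genes of chromosome 2 had a median log2 fold change of 0.42, and 342 of them (30.4%) rose by more than CYP1B1. Among the 20 tested genes nearest to CYP1B1, 17 had a positive value, the median was 0.34, and 5 exceeded CYP1B1. CYP1B1 stood 0.16 above the median of its chromosome on the log2 scale. The part of the chromosome in its rise was not tested. Antisense models cover some of its exons (CYP1B1-AS1, 11.3% of exon bases), but none of the libraries had more than 19 counts for that antisense RNA.

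**Figure D2:**
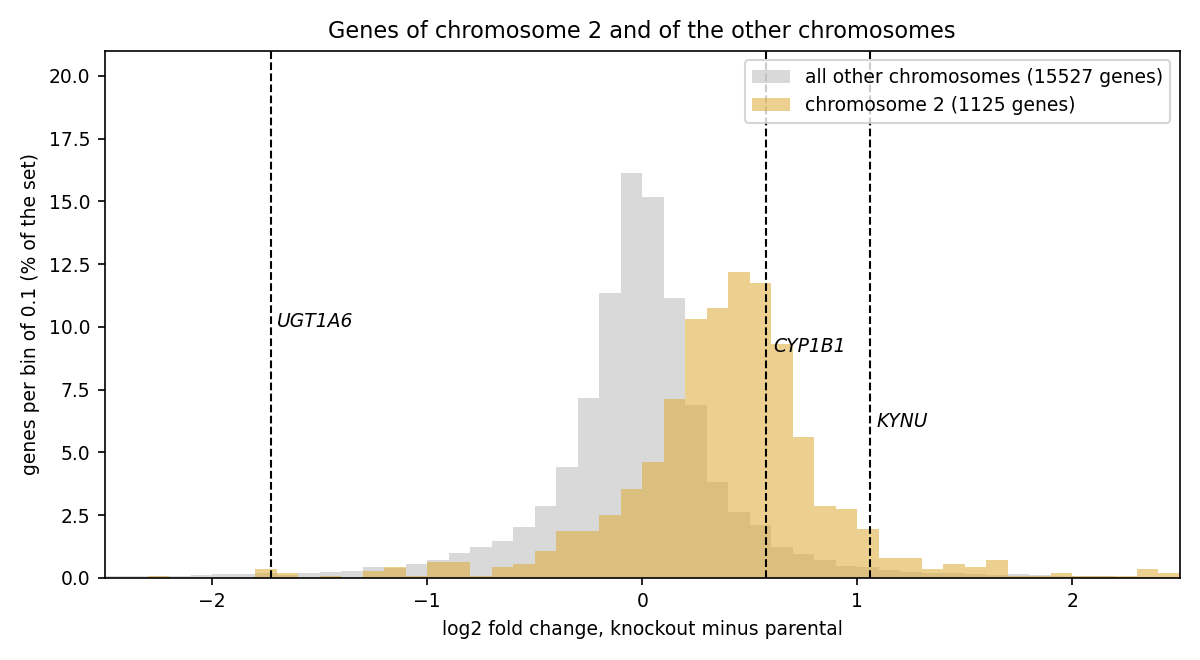
Distribution of log2 fold changes (x axis) for the 1125 tested genes of chromosome 2 (yellow) and all other tested genes (grey), as percent of each set per bin of 0.1 (y axis). Dashed lines mark CYP1B1 (0.58), which sits in the upper part of the chromosome 2 distribution, KYNU (1.06), above most of it, and UGT1A6 (-1.73), far below it.

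CYP1A1, the standard reporter of AHR activity, was barely expressed in either group. Counts were 28, 15 and 14 in parental and 39, 31 and 25 in knockout libraries (ENSG00000140465, chromosome 15, 74719542 to 74725610, minus strand). The groups overlapped, because parental replicate 1 (0.816 CPM) was above knockout replicate 2 (0.778 CPM) and knockout replicate 3 (0.805 CPM). The log2 fold change of 0.56 (SE 0.27) had an edgeR adjusted p of 0.1115 and a 95% interval from 0.992 to 2.20 times the parental level, and it passed without parental replicate 1 (0.90, edgeR adjusted p 0.0275). CYP1A2, the hepatic member of this family that lies next to CYP1A1, had a count of 0 in all 6 libraries, which over their summed depth allows a level of up to 0.0145 CPM (3 counts, counting error alone).

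CYP2S1, an extrahepatic P450 that is expressed in airway and gut epithelium and that AHR can induce, fell. It stood at 85.7, 79.9 and 81.8 CPM in the parental and 54.9, 48.2 and 53.1 CPM in the knockout libraries (ENSG00000167600, chromosome 19, 41193049 to 41207539, plus strand). Every knockout library lay far below every parental one. The fall of 0.66 on the log2 scale (SE 0.055, edgeR adjusted p 1.21e-08) left 0.631 of the parental level, with a 95% interval of 0.583 to 0.684.

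CYP3A5 had the largest change of the 10. It belongs to the family that metabolises most drugs and is the form usually found in lung (ENSG00000106258, chromosome 7, 99648194 to 99680026, minus strand). Counts were 117, 140 and 119 in parental and 37, 22 and 27 in knockout libraries, or 3.41, 4.60 and 3.66 CPM against 0.956, 0.552 and 0.869 CPM. No knockout library reached 1 CPM, and no parental library was below 3 CPM. CYP3A5 fell by 2.30 on the log2 scale (SE 0.20, edgeR adjusted p 1.76e-08), to 0.203 of the parental level (95% interval 0.153 to 0.270). Its 20 nearest tested genes had a median of -0.19. The related CYP3A4 and CYP3A7 had at most 1 count in any library, and 2.41% of the 50-base words in CYP3A5 transcripts also occur in other genes, CYP3A4 first among them.

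Neither of the 2 vitamin D enzymes passed the threshold. CYP24A1, the hydroxylase that inactivates vitamin D, was the most abundant of the 10 genes, at 629, 628 and 623 CPM in the parental libraries and 639, 613 and 652 CPM in the knockout ones (ENSG00000019186, chromosome 20, 54153449 to 54173973, minus strand). The groups overlapped, and the 95% interval of the change ran from 0.957 to 1.07 times the parental level (log2 fold change 0.018, SE 0.039, edgeR adjusted p 0.7577). CYP27B1, which makes the active hormone, had 35, 40 and 39 counts in parental and 51, 44 and 38 counts in knockout libraries (ENSG00000111012, chromosome 12, 57762334 to 57768986, minus strand). Its interval was wider, from 0.777 to 1.38 times the parental level (log2 fold change 0.048, SE 0.20, edgeR adjusted p 0.8726). Exons of METTL1, with up to 1401 counts, cover 3.11% of the exon bases of CYP27B1 on the same strand, and METTL1 itself had a log2 fold change of 0.016 (edgeR adjusted p 0.8695).

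**Figure D3:**
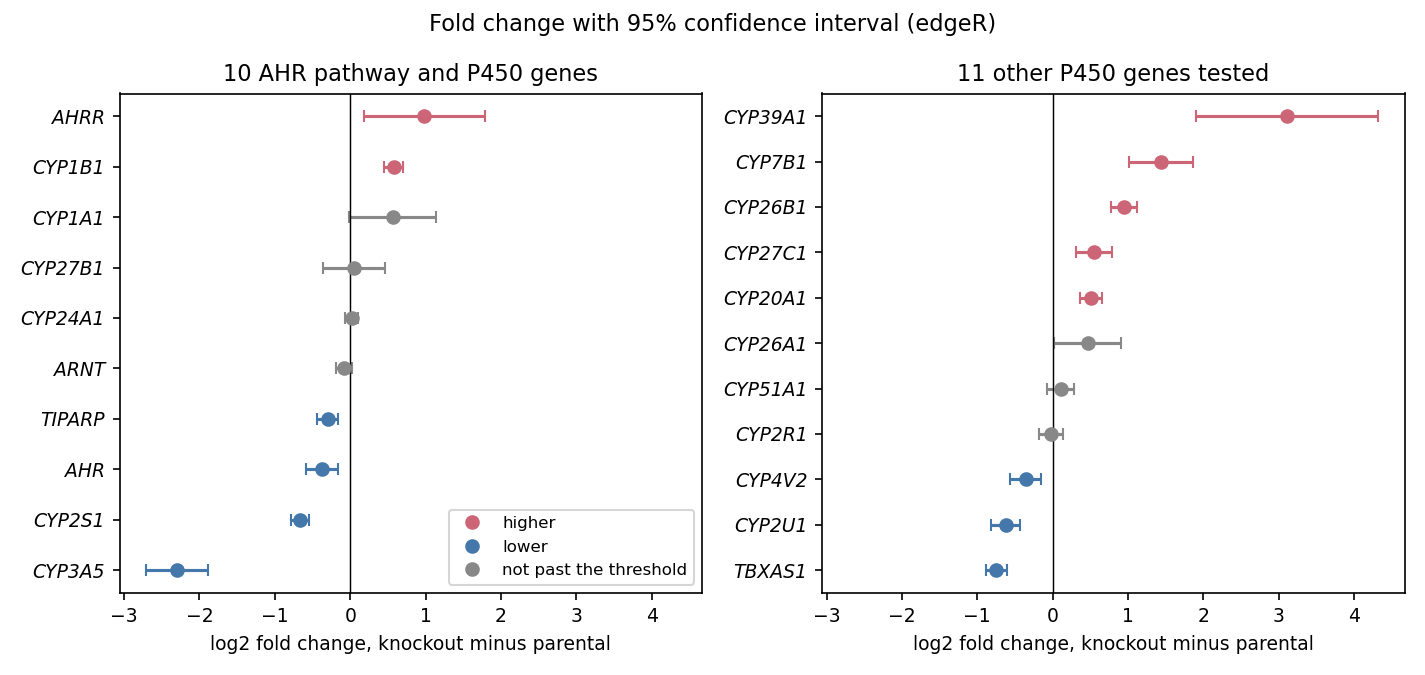
Log2 fold change of knockout against parental libraries (x axis) with the 95% confidence interval from edgeR, for the 10 genes (left) and the 11 other P450 genes outside CYP4F that could be tested (right). Red and blue mark genes past the threshold as higher and lower, and grey marks the rest. CYP3A5 lies far to the left of the other 9 genes, and the intervals of CYP24A1 and CYP27B1 span 0.

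Ratios of 2 genes within a library do not depend on scaling, and 6 such ratios were computed. The count ratio of CYP1B1 to TIPARP, which AHR both induces, was 1.87, 2.07 and 1.85 in parental and 3.49, 3.54 and 3.59 in knockout libraries. The groups were far apart relative to their spread, and the two-sided exact permutation p was 0.1, the smallest that 3 against 3 libraries allow (Benjamini-Hochberg adjusted p 0.3 over the 6 ratios). The ratio of CYP1B1 to CYP2S1 behaved likewise, with 0.839, 0.998 and 0.891 in parental and 1.83, 2.506 and 2.14 in knockout libraries (exact permutation p 0.1, adjusted p 0.3). CYP1B1 lies on chromosome 2, where the median shift was 0.42 on the log2 scale. The part of the chromosome in these ratios was not tested. In CPM the groups were already apart for CYP1B1 (higher), TIPARP (lower) and CYP2S1 (lower), so both ratios had to separate. Their exact permutation p of 0.1 therefore adds nothing to the single-gene results. TIPARP to AHR, in contrast, was 2.497, 2.01 and 2.46 against 2.60, 2.37 and 2.34, and the groups overlapped (exact permutation p 0.7). The ratios of CYP1B1 to CYP1A1 (exact permutation p 0.8), AHR to ARNT (0.2) and CYP24A1 to CYP27B1 (1.0) overlapped too.

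Levels of different genes were compared per kilobase of the gene length in the count table. In parental cells the order was CYP24A1 (157 CPM per kb), CYP2S1 (30.4), CYP1B1 (12.5), TIPARP (8.09), ARNT (7.93), AHR (2.097), CYP3A5 (0.396), CYP27B1 (0.359), CYP1A1 (0.173) and AHRR (0.0612). CYP3A5 and CYP27B1 overlapped in that order. The order of close levels rests on these lengths: with the merged exon bases of GENCODE 29 (6759 in place of 9817 for CYP3A5, 7678 in place of 4510 for AHRR), parental CYP3A5 (0.576) no longer overlapped CYP27B1 (0.343), AHRR stood at 0.0359, and TIPARP (7.69) came below ARNT (7.85). In knockout cells CYP2S1 (19.2 ± 1.29 CPM per kb) and CYP1B1 (18.7 ± 1.73, SD, n = 3 each) overlapped, and CYP3A5 (0.0807 ± 0.0216) and AHRR (0.127 ± 0.0641) were the lowest and overlapped. With GENCODE lengths the means in both pairs changed order, at 18.1 for CYP2S1 and 18.6 for CYP1B1, and at 0.117 for CYP3A5 and 0.0745 for AHRR, and both pairs still overlapped. Over 51 P450 genes outside CYP4F, the summed level was 217 ± 1.49 CPM per kb in parental and 214 ± 5.63 CPM per kb in knockout libraries (SD, n = 3 each), and the 6 P450 genes described here held 92.1% to 92.7% of it. CYP24A1 alone held 72.4% of the parental and 74.2% of the knockout sum. The share of CYP2S1 was 14.0% in parental and 8.95% in knockout cells, and that of CYP1B1 5.76% and 8.71%.

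**Figure D4:**
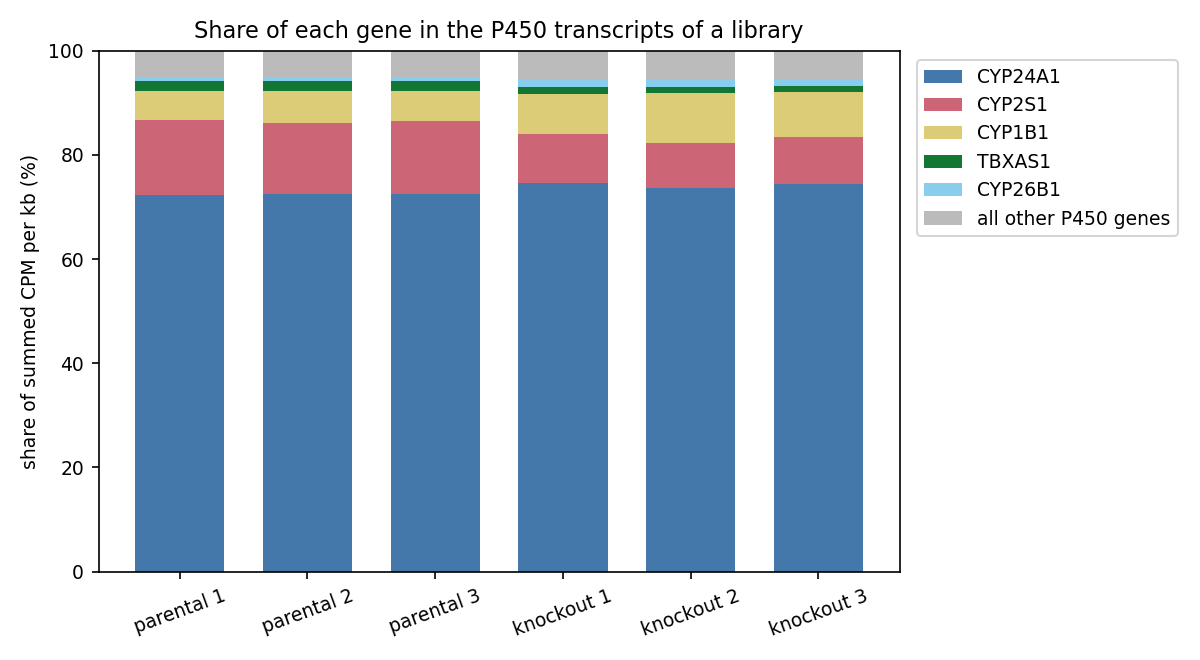
Share of the summed CPM per kb over 51 P450 genes (y axis, percent) in each of the 6 libraries (x axis), stacked by gene. CYP24A1 fills over 70% of every bar, the CYP2S1 segment is smaller in the 3 knockout libraries, and the CYP1B1 segment is larger there.

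Most other P450 genes had few or no reads. Of 45 further P450 genes outside CYP4F, 34 had too few reads for a test, with at most 16 counts in any library, and 16 of these had a count of 0 in all 6. Of the 11 tested, 5 rose and 3 fell (72.7%, beside 41.4% of all tested genes), with a median log2 fold change of 0.46, and 3 of the 5 that rose lie on chromosome 2. CYP26B1, which degrades retinoic acid, rose by 0.94 (SE 0.081, edgeR adjusted p 2.05e-08), from 8.39 to 16.1 CPM, and CYP27C1, a retinoid desaturase, by 0.55 (SE 0.12), and both are among those 3. CYP20A1, an orphan enzyme, is the third and rose by 0.51 (SE 0.071). Of the tested genes of chromosome 2, 9.07% rose by more than CYP26B1, 33.7% by more than CYP27C1 and 38.1% by more than CYP20A1. The oxysterol hydroxylase CYP7B1 rose from 21, 26 and 27 counts to 71, 93 and 63 (log2 fold change 1.44, SE 0.20), and CYP39A1 from 3, 1 and 0 counts to 14, 17 and 11 (edgeR adjusted p 0.000232), where the fitted fold depends on the prior count. Thromboxane synthase TBXAS1 fell from 27.2 to 16.2 CPM (-0.75, SE 0.068), the fatty acid hydroxylase CYP2U1 from 9.68 to 6.29 CPM (-0.63, SE 0.091) and CYP4V2 from 7.20 to 5.61 CPM (-0.36, SE 0.099). TBXAS1 lies on chromosome 7, and its 20 nearest tested genes had a median of -0.13.

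The proteins that hold or assist AHR include chaperones, coactivators and dimer partners. Of 15 genes of the AHR complex and its coregulators, 8 rose and 0 fell in edgeR (53.3%, beside 41.4% of all tested genes, 21.3% higher and 20.1% lower), with a median log2 fold change of 0.18. None was lower in DESeq2 or limma-voom either, or by edgeR's p before adjustment (0 under 0.05), whereas 1 gene, EP300, passed as lower in 2 of the 14 alternative fits. RELB, an NF-kB subunit that can pair with AHR, rose on the log2 scale by 1.56 (SE 0.070), 10.7 CPM becoming 31.4 CPM. CUL4B, the scaffold of the ubiquitin ligase in which AHR serves as an adaptor, rose by 0.68 (SE 0.057), the coactivator NCOA1, on chromosome 2, by 0.53 (SE 0.058) and KLF6, a zinc finger partner of AHR, by 0.40 (SE 0.063). On chromosome 2, 36% of the tested genes rose by more than NCOA1. ARNT2, the second partner of this family, stood at 82.0 and 88.3 CPM (0.11, SE 0.044, edgeR adjusted p 0.0622).

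AHR-responsive genes outside the 10 moved both ways. Of 15 listed, 11 were tested, of which 4 rose and 4 fell (72.7%, beside 41.4% of all tested genes), with a median of -0.099. The efflux pump ABCG2 rose on the log2 scale by 1.23 (SE 0.057), 23.7 CPM becoming 55.6 CPM, the secreted glycoprotein STC2 by 0.83 (SE 0.056) and SLC7A5, the transporter that brings tryptophan and kynurenine into the cell, from 1970 to 3080 CPM (0.64, SE 0.043). The prostaglandin synthase PTGS2 fell from 14.0 to 6.28 CPM (-1.16, SE 0.089) and the aldehyde dehydrogenase ALDH3A1 from 2926 to 2174 CPM (-0.43, SE 0.052, edgeR adjusted p 2.11e-06). NQO1, a quinone reductase that NRF2 also controls, stood at 2216 and 2209 CPM (-0.0044, SE 0.041). UGT1A6, a glucuronosyltransferase named after its value was seen, fell by 1.73 (SE 0.25) and lies on chromosome 2, and its reads may be shared with other UGT1A genes because those share exons.

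Of 14 genes that make or use tryptophan metabolites, some of which are AHR ligands, 10 were tested, 3 rose and 1 fell, with a median of 0.13. That share, 4 of 10, is near the 41.4% of all tested genes and is no result about this list. Kynureninase KYNU, on chromosome 2, rose on the log2 scale by 1.06 (SE 0.052), 86.6 CPM becoming 180.3 CPM, and 70 of the 1125 tested genes there rose by more. IL4I1, an amino acid oxidase, rose from counts of 12, 8 and 6 to 27, 43 and 13 (1.48, SE 0.37), and AADAT, an aminotransferase, rose by 0.26 (SE 0.087). The AADAT call did not hold in DESeq2 (adjusted p 0.0567), nor when knockout replicate 2 (0.20), parental replicate 1 (0.22) or parental replicate 2 (0.22) was left out. The related KYAT3 fell by 0.34 (SE 0.082). IDO1, which opens the pathway in many tumours, had at most 1 count in a library.

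P450 enzymes need electrons and heme. Of 14 genes that supply or recycle these, 13 were tested, 7 rose and 2 fell (69.2%, beside 41.4% of all tested genes), with a median of 0.12. One of the 7, the heme-binding PGRMC1 (0.12), lost its call in 9 of 14 alternative fits. Heme oxygenase HMOX1, which breaks heme down and is a stress-induced gene, rose on the log2 scale by 0.95 (SE 0.049), 127 CPM becoming 246 CPM, its relative HMOX2 by 0.46 (SE 0.066) and the cytochrome b5 CYB5A by 0.60 (SE 0.056). The mitochondrial form CYB5B fell by 0.30 (SE 0.044). POR, the reductase that feeds all microsomal P450 enzymes, stood at 206 and 188 CPM (-0.13, SE 0.046, edgeR adjusted p 0.0276), a call lost without parental replicate 1 (-0.12) or 2 (-0.13) or knockout replicate 2 (-0.086) or 3 (-0.13). POR lies on chromosome 7, and its 20 nearest tested genes had a median of -0.22, a larger fall than its own.

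Of 13 genes of the vitamin D receptor and its response, 8 were tested, and 3 rose and 0 fell in edgeR, with a median of 0.028. That share of 37.5% is near the 41.4% of all tested genes and is no result about this list. No gene of this list was lower in DESeq2 (0) or limma-voom (0), and 1 was lower by edgeR's p before adjustment. The receptor VDR stood at 7.39 and 7.05 CPM (log2 fold change -0.067, SE 0.11, edgeR adjusted p 0.6665) and its partner RXRA at 108 and 117 CPM (0.11, SE 0.047, edgeR adjusted p 0.0683). Thrombomodulin THBD rose by 0.49 (SE 0.067), osteopontin SPP1 by 0.20 (SE 0.046) and DHCR7, which competes for the vitamin D precursor, by 0.16 (SE 0.048). The DHCR7 call was lost without parental replicate 3 (0.14, edgeR adjusted p 0.0754). Without knockout replicate 1, 3 were higher and 2 lower.

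Other regulators of P450 genes include many factors of liver and gut. Of 14 listed, 11 were tested, 9 fell and 1 rose (lower in 20.1% and higher in 21.3% of all tested genes), with a median of -0.30. CEBPB was the one that rose (0.28, edgeR adjusted p 0.000367), and CEBPA (0.094) did not pass. The nuclear receptor NR5A2 went from 118 to 19.6 CPM (log2 fold change -2.58, SE 0.061), FOXA3 from 12.4 to 1.99 CPM (-2.63, SE 0.11) and the bile acid receptor NR1H4 from 1.52 to 0.109 CPM (-3.75, SE 0.32), and each had an edgeR adjusted p of 2.07e-08 or less. The xenobiotic receptor NR1I2, a known regulator of the CYP3A family, had a count of 0 in all libraries, and NR1I3 had at most 2. Of the 7 epithelial markers 6 fell in the same comparison, and their part in these falls was not tested.

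**Figure D5:**
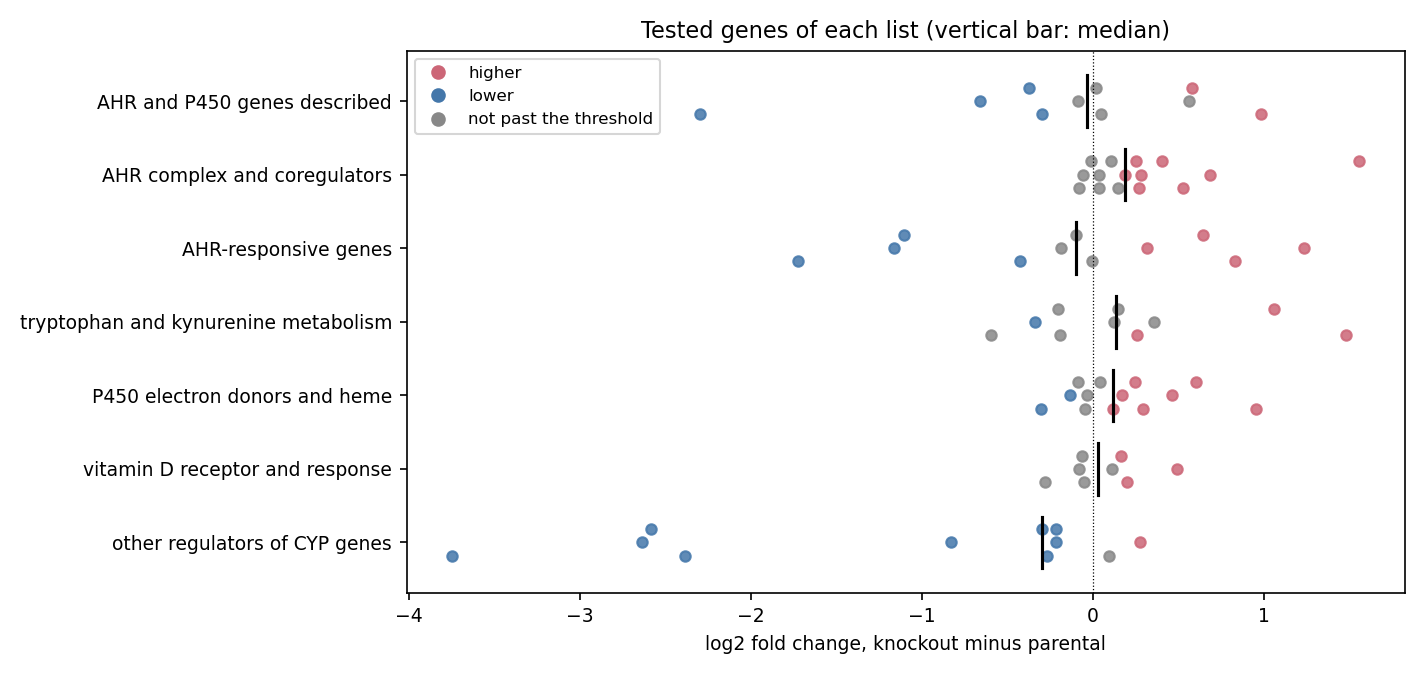
Log2 fold change (x axis) of every tested gene in 7 lists (y axis), coloured by call, with the list median as a vertical bar. The regulators of P450 genes lie mostly to the left of 0 (median -0.30), the AHR complex mostly to the right (median 0.18), and the AHR-responsive genes on both sides (median -0.099).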

How the data were processed

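RNA extracted with TRIzol went into stranded mRNA libraries, per the labels' protocols. The submitters' processing notes name cutadapt 2.8, HISAT2 2.1.0, SAMtools 1.10, featureCounts 2.0.0 and hg38. The deposited table holds raw read counts per gene, which the authors did not normalize, and a length per gene. The sources used here do not give the annotation release, the strand setting or the treatment of shared reads, so genes with overlapping or near-identical copies are uncertain. The deposited table writes hyphens in symbols as dots.

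Counts were fitted in edgeR 4.0.16 (R 4.3.3): filterByExpr kept 16652 genes, TMM factors scaled the libraries, and the quasi-likelihood test compared knockout with parental libraries over all of them with Benjamini-Hochberg adjustment. CPM used total counts times TMM factors, and each standard error was derived from the F statistic. Alternatives were RLE, upper-quartile and TMM scaling without chromosome 2, 2 other filters, a replicate block, each library left out, DESeq2 1.42.0, limma-voom (limma 3.58.1) and stricter thresholds. No libraries of a group agreed within sampling noise (chi-square per degree of freedom 2.41 to 8.86). On simulated counts (16413 genes) the test recovered 34 of 50 genes at a 1.25-fold change, 43 of 50 at 1.5-fold and 50 of 50 at 2-fold, and it called 7 of 16213 unchanged genes. The changed genes were drawn only from those above a mean of 1 CPM, a level that AHRR and CYP1A1 do not reach. No chromosome was shifted as a whole and most genes were left unchanged, whereas 41.4% of tested genes passed in the data. These rates therefore need not hold for this comparison. Positions and exon overlaps came from GENCODE release 29 on the same build, and promoters from RefSeq.

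The 10 genes, the lists and the tests were chosen with earlier results of these data known. All 10 genes and RAVER1 are named. Each other list gives up to 4 genes past the threshold, taken by adjusted p, plus VDR, RXRA, ARNT2, POR, NQO1, ALDH3A1, CYP1A2 and CYP3A4 whatever their values, and 2 further genes that the rule names are not reported here. IDO1, CYP3A7, NR1I2, NR1I3, UGT1A6, EP300, PGRMC1, CEBPA and CEBPB were named after their values were seen. A direct repeat of vitamin D receptor sites spaced 3 bases apart, searched on both strands, was in none of the matched promoters and in 0.0797% of all.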

Additional observations from a re-analysis of the deposited data

How the results depend on the processing

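Of 89 tested genes of the lists, 69 kept their call in every alternative fit and 0 reversed a called direction. AHR, TIPARP, CYP1B1, CYP2S1 and CYP3A5 stayed past the threshold, and ARNT, CYP24A1 and CYP27B1 stayed short of it, in each of the 14 alternative fits. The AHRR log2 fold change passed in 6 of the 13 fits that gave it a value. It was lost with upper-quartile scaling (0.95, adjusted p 0.05195), in DESeq2 (1.02, adjusted p 0.1156), in limma-voom (0.86, adjusted p 0.07529) and without parental replicate 1 (1.11), parental replicate 2 (0.88), parental replicate 3 (0.98) or knockout replicate 3 (0.55). Neither AHRR nor CYP1A1 reached 1 CPM in 3 libraries, so that filter gave them no value. With the replicate number as a block, genes past the threshold numbered 8346 in place of 6886, and the 10 genes kept their calls. EP300 passed as lower with that block and with upper-quartile scaling. Same-numbered libraries had deviations correlated at 0.129, 0.029 and 0.014, and not every library correlated best with its own number, so the numbers were not taken as pairs.

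At least 2-fold, 1137 of the 16652 tested genes passed (499 higher and 638 lower), and 1 of the 10 genes. DESeq2 called 6054 genes and limma-voom 6828. Vitamin D genes past the threshold numbered 5 (4 higher and 1 lower) with the replicate block, in place of 3, and between 2 and 5 with a library left out. Among the further P450 genes, outside the 10, those of families 1 to 3 past the threshold numbered 2 in place of 1 with no filter. The further sterol P450 genes past it numbered 1 in place of 2 with the filter of 1 CPM in 3 libraries. Depth limits AHRR, CYP1A1 and CYP27B1, with at most 51 counts in a library. Levels per kilobase with GENCODE exon lengths were added after seeing the data, and the summed P450 level was then 219 CPM per kb in both groups, with CYP24A1 at 71.9% and 73.0% of it. With these lengths the P450 genes among the 10 held 89.9% to 91.3% of the sum, less than with the lengths of the count table.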
